A study of Homo sapiens with 37 samples.

Results

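The comparison described here set RNA labelled next to a chromatin protein against RNA labelled at the endoplasmic reticulum (ER) membrane. It used 8 of the 37 libraries of the study: 2 pulldowns and 2 inputs from cells carrying APEX-CBX1, and 2 pulldowns and 2 inputs from cells carrying C1-APEX. The quantity of interest was the pulldown over input of CBX1 minus the pulldown over input of C1, with the direct difference between the 2 pulldowns beside it. All 8 libraries came from unstressed (naive) HEK293T cells, a human embryonic kidney line, and were assigned to their groups by their labels. APEX fusions with GFP, eIF4E and eIF4A, with 2 pulldowns and 2 inputs each, supplied further spread and a setting for single IDs. Every library shared the labelling reaction, 500 µM biotin-phenol for 30 min followed by 1 mM H2O2 for 1 min. The labels name neither a promoter for the constructs nor whether a line was 1 clone. They also do not state that replicates were grown separately, and p-values therefore describe library-to-library spread that may be only technical.

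APEX is an engineered peroxidase that turns biotin-phenol into a short-lived radical when H2O2 is added, so that molecules close to the enzyme become biotinylated and can be caught on streptavidin. CBX1 is a member of the HP1 family, which binds methylated histone H3 on heterochromatin, and thus places the enzyme in the nucleus. C1 is, from other APEX work, an anchor sequence that holds the enzyme on the ER membrane facing the cytosol, where mRNAs of secreted and membrane proteins are translated. Nuclear-retained noncoding RNAs on one side, and mRNAs of secretory proteins on the other, are the textbook classes for such a pair of locations. The deposited table lists versioned Ensembl gene IDs without names or coordinates, and 0 of its 60483 IDs matched the gene table used here. No list of genes, cell type marker or sequence could therefore be looked up, neither the baits nor the HEK293T identity could be checked, and 4 IDs are named below by their ID alone.

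Total counts were 2996415 and 2600318 in the CBX1 pulldowns and 1752869 and 2581655 in the C1 pulldowns, against 1832646 and 1723135 in the CBX1 inputs and 1918014 and 1419968 in the C1 inputs. The share of counts in the 10 most abundant IDs was 62.8% ± 4.23 in the CBX1 pulldowns and 67.6% ± 3.41 in the C1 pulldowns, and 69.7% ± 1.64 and 71.6% ± 0.60 in the inputs of CBX1 and C1 (SD, n = 2 each). After a filter on low counts, 12427 IDs were tested.

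C1 pulldown replicate 1 stood apart. Over the tested IDs, log2 levels of the 2 CBX1 pulldowns correlated at 0.93 and those of the 2 C1 pulldowns at 0.76, against 0.94 for the CBX1 inputs and 0.92 for the C1 inputs (IDs are not independent replicates). The median gap between replicates was 0.33 log2 units for the CBX1 pulldown and 0.65 for the C1 pulldown. In C1 pulldown replicate 1, 62 IDs had no count although each of the other 7 libraries held at least 10. The same count was 1 in C1 pulldown replicate 2, 1 in CBX1 pulldown replicate 1 and 0 in each of the other 5 libraries. Results are therefore also given without this library.

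**Figure D1:**
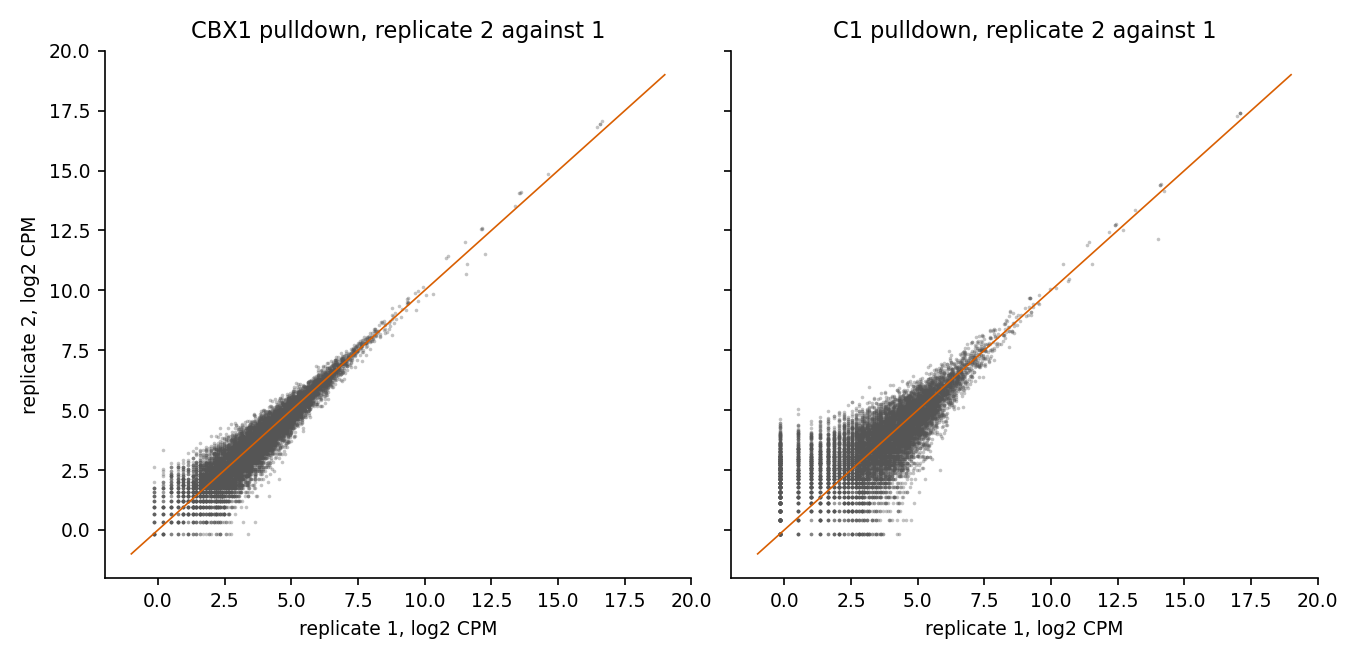
Normalised level of each of the 12427 tested IDs in pulldown replicate 2 (vertical, log2 CPM) against replicate 1 (horizontal, log2 CPM), for CBX1 on the left and C1 on the right; the line marks equal levels. The C1 panel is wider, and its left edge holds IDs with no count in replicate 1 that were present in replicate 2.

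Pulldown over input differed between CBX1 and C1 in 8 of 12427 IDs at an edgeR adjusted p under 0.05, which is 0.0644% of the IDs tested. Of these, 7 were higher for CBX1 (0.0563%) and 1 was lower (0.00805%). Same-numbered ratios of the constructs did not overlap in 37.1% of all tested IDs, pulldowns in 43.5% and inputs in 48.9%, so non-overlap alone is common here. The unadjusted p was under 0.05 for 1233 IDs or 9.92% of those tested, 684 higher and 549 lower. The median difference over all tested IDs was 0.02 log2 units and the median standard error 0.63. The 8 calls fell into 3 kinds by where the difference lay.

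In 3 of the 7 IDs that were higher for CBX1, the C1 pulldowns were at or near 0. One had 61 counts over the 2 CBX1 pulldowns and 0 over the 2 C1 pulldowns, with 21 counts in the CBX1 inputs and 23 in the C1 inputs. Against a floor of 3 counts over the C1 group, its normalised level was at least 12.6-fold higher in the CBX1 pulldown. The second had 111 counts in the CBX1 pulldowns and 1 in the C1 pulldowns, a normalised ratio of 69.0 with an exact 95% counting interval of 12.1 to 2749. Its inputs held 51 counts for CBX1 and 36 for C1. The third had 43 counts in the CBX1 pulldowns and 1 in the C1 pulldowns, a ratio of 26.7 (4.55 to 1080), while its inputs held 2 counts for CBX1 and 16 for C1. The intervals and the floor cover counting error only. All 3 had the lowest mean pulldown level of the 5 constructs in the C1 pulldown, which the near-0 counts that define this kind all but fix. Their mean level over the 8 libraries was 1.50 to 2.99 log2 CPM. They were at 0 in C1 pulldown replicate 1 and at 0 or 1 count in replicate 2. DESeq2, limma-voom and the edgeR fit with only the 8 libraries each called 0 of the 3. With a replicate term 2 were called, and with a replicate term within construct 1. Fits that left out a library are given below for all input-adjusted calls.

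In 3 others that were higher for CBX1, the larger part of the difference lay between the inputs and not between the pulldowns. Input-adjusted differences of 1.13 to 2.70 log2 units stood beside input differences of -2.26 to -1.84 and pulldown differences of only -0.70 to 0.44. Of the inputs of the 5 constructs, those of CBX1 were lowest and those of C1 ranked 1st or 2nd highest for all 3 IDs. The rule that defines this kind, a large input difference in IDs higher for CBX1, favours such an order in these IDs. The 2 more abundant of them were thus higher for CBX1 by pulldown over input, yet lower in the CBX1 pulldown than in the C1 pulldown by direct comparison (log2 differences -0.69 and -0.70, edgeR adjusted p = 0.0137 and 0.00486).

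ENSG00000269821.1 had the largest input-adjusted difference of these 3, the fewest counts in the CBX1 inputs, and the only pulldown difference above 0. It measured 119 and 72.4 CPM in the CBX1 pulldowns, against 62.6 and 78.4 CPM in the C1 pulldowns. In inputs it measured 7.55 and 10.3 CPM for CBX1, against 39.4 and 47.0 CPM for C1. The pulldowns of the constructs overlapped, while the CBX1 inputs lay well below the C1 inputs and rested on 12 and 17 counts. The input-adjusted log2 difference was 2.70 ± 0.41 (SE; edgeR adjusted p = 0.00654). It was the sum of a pulldown difference of 0.44 ± 0.22 (adjusted p = 0.215) and an input difference of -2.26 ± 0.35 (adjusted p = 0.000383) turned round. The pulldown difference was 0.03 without CBX1 pulldown replicate 1 and 0.74 without CBX1 pulldown replicate 2, neither called, and 0.77 with a call when scaled by library size. The input-adjusted call was lost with limma-voom, with only the 8 libraries, and without C1 input replicate 2, CBX1 input replicate 1, CBX1 input replicate 2 or CBX1 pulldown replicate 1. Its pulldown over input was 3.82 and 2.71 log2 units in the same-numbered CBX1 libraries, and 0.66 and 0.73 in those of C1. The other constructs resembled C1, with 0.57 and 0.86 for GFP, 0.87 and 0.60 for eIF4E and 0.53 and 0.36 for eIF4A.

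The remaining 2 calls, 1 in each direction, lay mainly between the pulldowns. ENSG00000116127.16 measured 63.7 and 50.3 CPM in the CBX1 pulldowns and 22.0 and 23.1 CPM in the C1 pulldowns. Its inputs measured 34 and 35.8 CPM for CBX1 and 37.5 and 43.0 CPM for C1. Both CBX1 pulldowns were above and both C1 pulldowns below every input of the pair, so the constructs moved to opposite sides of inputs that differed little. The input-adjusted log2 difference was 1.54 ± 0.31 (SE; edgeR adjusted p = 0.0483) and the pulldown difference 1.34 ± 0.21 (adjusted p = 0.000289). Of all tested IDs, it was the single one called higher in the CBX1 pulldown over its own input (0.71 ± 0.21, adjusted p = 0.0474) and lower in the C1 pulldown over its own input (-0.83 ± 0.23, adjusted p = 0.029). Calls of pulldown over own input were not tried in other settings. No ID was called the other way round in both constructs, whereas 53 were called higher and 144 lower in both. Of 12427 tested IDs, 486 were called over input for CBX1 (199 higher) and 802 for C1. Among the other constructs, GFP had pulldown-over-input values of 0.35 and 0.09 log2 units, eIF4E -0.38 and -0.37, and eIF4A -0.41 and -0.24. CBX1 thus had the highest and C1 the lowest mean of the 5. The choice of this ID by its CBX1 minus C1 difference favours that order, which is a description only. The input-adjusted call lies close to the threshold and was made in 9 of 18 alternative settings. It was lost with limma-voom, with only the 8 libraries, with a replicate term, and without any 1 of the 4 inputs or CBX1 pulldown replicate 1.

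ENSG00000272333.4 was the 1 call that was lower for CBX1. It measured 62.7 and 72.1 CPM in the CBX1 pulldowns, against 160 and 144 CPM in the C1 pulldowns. Its inputs measured 53.5 and 48.5 CPM for CBX1 and 40.6 and 44.6 CPM for C1. Both C1 pulldowns lay above both CBX1 pulldowns, and the inputs lay close together in the opposite order. The input-adjusted log2 difference was -1.44 ± 0.26 (SE; edgeR adjusted p = 0.0178) and the pulldown difference -1.18 ± 0.16 (adjusted p = 5.1e-05). Pulldown over input was 1.84 ± 0.18 for C1 (adjusted p = 2.02e-07) and 0.40 ± 0.18 for CBX1 (adjusted p = 0.249). The GFP libraries lay between, at 1.56 and 0.92, and eIF4E (0.77 and 0.65) and eIF4A (0.76 and 0.63) lay nearer to CBX1. Here too, the choice of the ID favours CBX1 and C1 at the ends. The input-adjusted call was made in 10 of 18 alternative settings. It was lost when scaled by library size (-1.23), with limma-voom, with only the 8 libraries, and without any 1 of the 4 inputs or CBX1 pulldown replicate 1.

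ENSG00000184216.10 was not called; it had the smallest unadjusted p among the uncalled IDs that were lower for CBX1, had a mean of at least 3 log2 CPM and did not overlap. It measured 92.3 and 129 CPM in the CBX1 pulldowns and 164 and 157 CPM in the C1 pulldowns. Its inputs measured 147 and 145 CPM for CBX1 and 87.4 and 110.0 CPM for C1, so the order of the constructs was turned between the fractions. The input-adjusted log2 difference was -1.11 ± 0.23 (SE; edgeR adjusted p = 0.0681), made of -0.54 ± 0.16 between pulldowns (adjusted p = 0.0316) and 0.57 ± 0.17 between inputs (adjusted p = 0.123). Between pulldowns, scaling by library size gave -0.27 and leaving out CBX1 pulldown replicate 1 gave -0.31, both without a call. DESeq2 gave -1.13 for the input-adjusted difference and called it (adjusted p = 0.0163, with a highest of 0.693 over all settings tried).

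**Figure D2:**
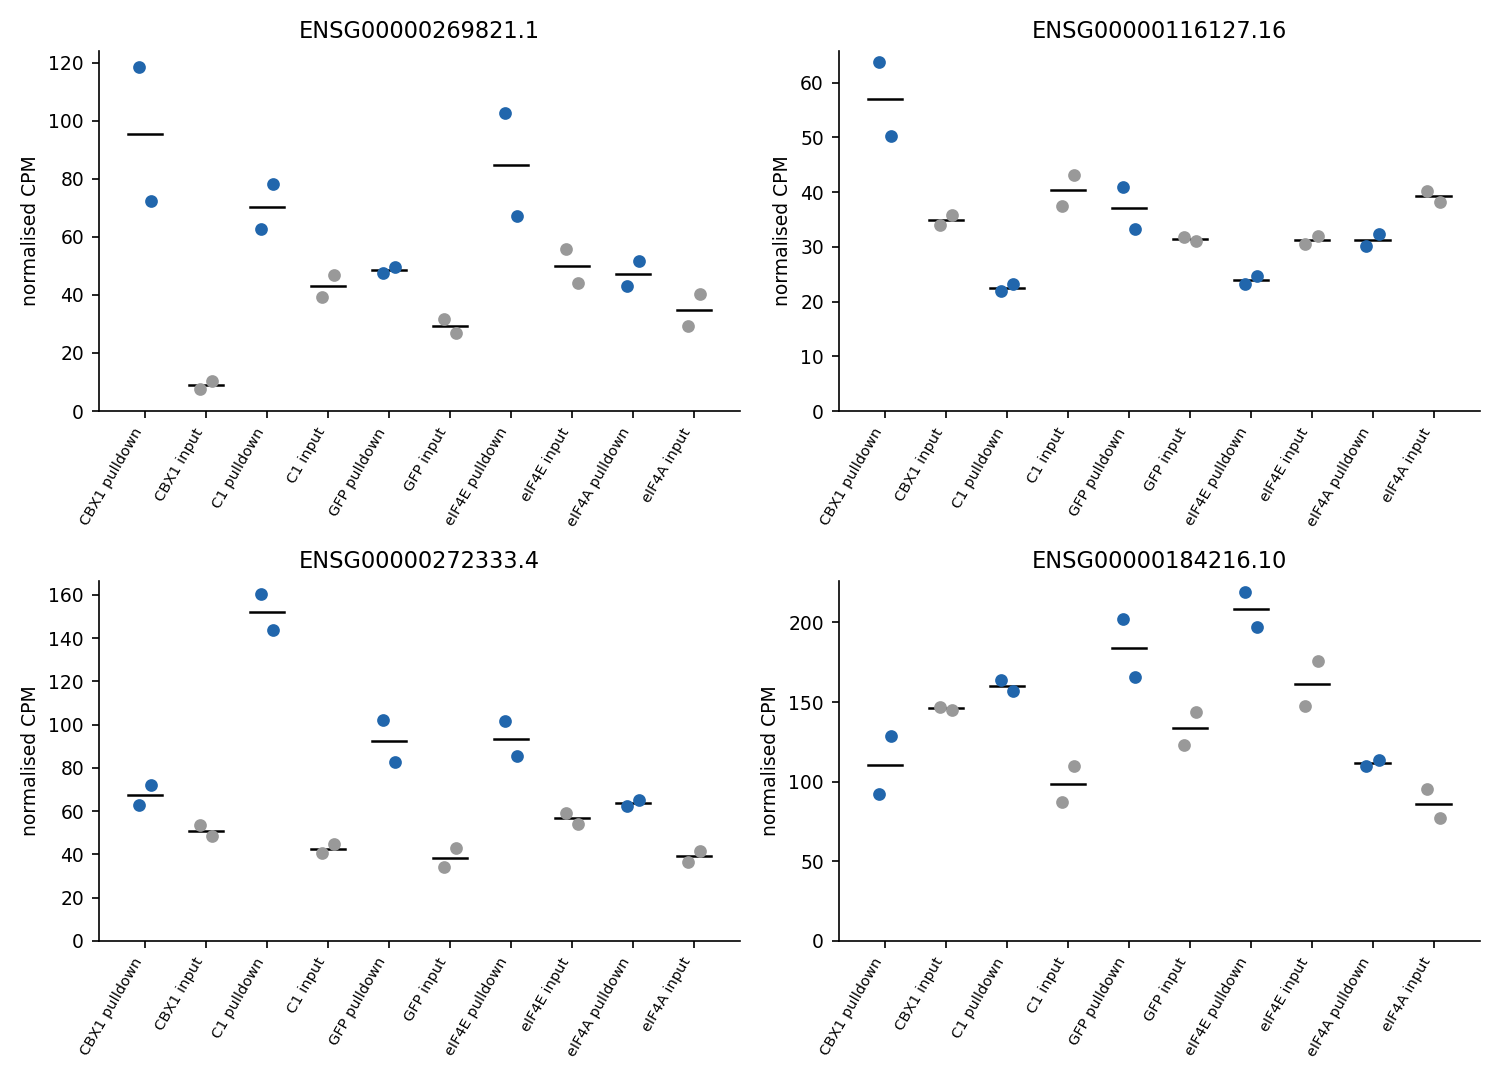
Normalised level (vertical, CPM, linear from 0) of the 4 named IDs in the 20 naive libraries, by construct and fraction; each dot is a library, blue for pulldowns and grey for inputs, and the bar is the mean of 2. For ENSG00000269821.1 the CBX1 inputs lie far below all other inputs, while for ENSG00000116127.16 and ENSG00000272333.4 the CBX1 and C1 pulldowns lie apart and the inputs close together.

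The 2 constructs shared much of their pulldown-over-input profile. Over 2099 IDs with a mean of at least 5 log2 CPM, the profile correlated at 0.73 between the CBX1 replicates and at 0.56 between the C1 replicates, and at 0.51 to 0.55 between a CBX1 and a C1 replicate, as a description of IDs within these libraries. The C1 replicates were therefore hardly more like each other than like CBX1. The fitted values of the constructs correlated at 0.65 over these IDs and at 0.33 over all tested IDs, where counts are lower.

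**Figure D3:**
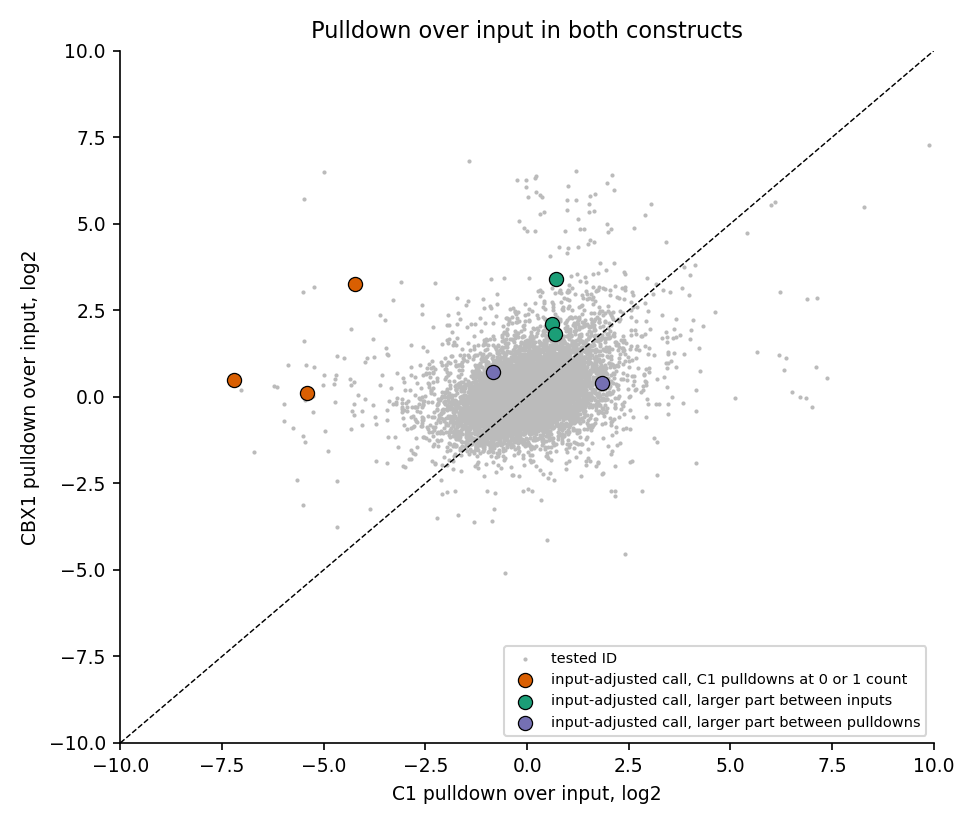
Log2 pulldown over input of CBX1 (vertical) against that of C1 (horizontal) for the 12427 tested IDs in grey; the 8 input-adjusted calls are coloured by where their difference lay, and the dashed line marks equal values. Of the calls, 3 lie far left where C1 pulldowns were at 0 or 1 count, and the single lower call lies right of the line.

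Directly between pulldowns, 1144 IDs differed, 9.21% of those tested (edgeR, 20 libraries). The count was 166 with only the 10 pulldowns in the fit, 150 with only the 8 libraries, and 365 without CBX1 pulldown replicate 1, so the descriptions of the 1144 below hold for the 20-library fit. Of these, 571 (4.59%) were higher in the CBX1 pulldown with a median log2 difference of 1.15, and 573 (4.61%) were lower with a median of -1.42. The higher and lower calls were balanced with TMM, but library size in place of TMM gave a median of 0.30 log2 units over all IDs, with 1354 higher and 263 lower. Between inputs 105 IDs differed, or 0.845%, of which 61 (0.491%) were higher and 44 (0.354%) lower in CBX1. Upper-quartile scaling turned that balance to 38 higher and 59 lower. Of the 8 input-adjusted calls, 5 were called in the same direction between pulldowns, 2 in the opposite direction and 1 was not called.

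Pulldown and input calls came from separate libraries, although the test shared 1 spread per ID between them. Of the 571 IDs higher in the CBX1 pulldown, 30 were also called higher in the CBX1 input, which is 5.25% of the pulldown calls and 49.2% of the 61 input calls. Of the 573 lower in the CBX1 pulldown, 32 were also lower in the CBX1 input, 5.58% of the pulldown calls and 72.7% of the 44 input calls. In no case (0 IDs) were the directions opposite. Over all tested IDs, 4.59% were called higher and 4.61% lower between pulldowns, and 0.491% higher and 0.354% lower between inputs. Both kinds of call were more frequent among abundant IDs, as given below, and the overlap was not corrected for level. The inputs of the pulldown calls leaned the same way as the pulldowns. The median input difference was 0.34 for the higher and -0.53 for the lower calls, against a median of -0.01 over all tested IDs. The input difference had the sign of the pulldown difference in 77.2% of the higher and 81.3% of the lower calls. The share with equal signs over all tested IDs was not computed. The median input-adjusted difference of the pulldown calls was 0.88 for the higher and -0.83 for the lower ones, which is a description because the pulldowns also chose these IDs. Fewer molecules of an RNA and fewer labelled molecules cannot be told apart in a pulldown alone.

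**Figure D4:**
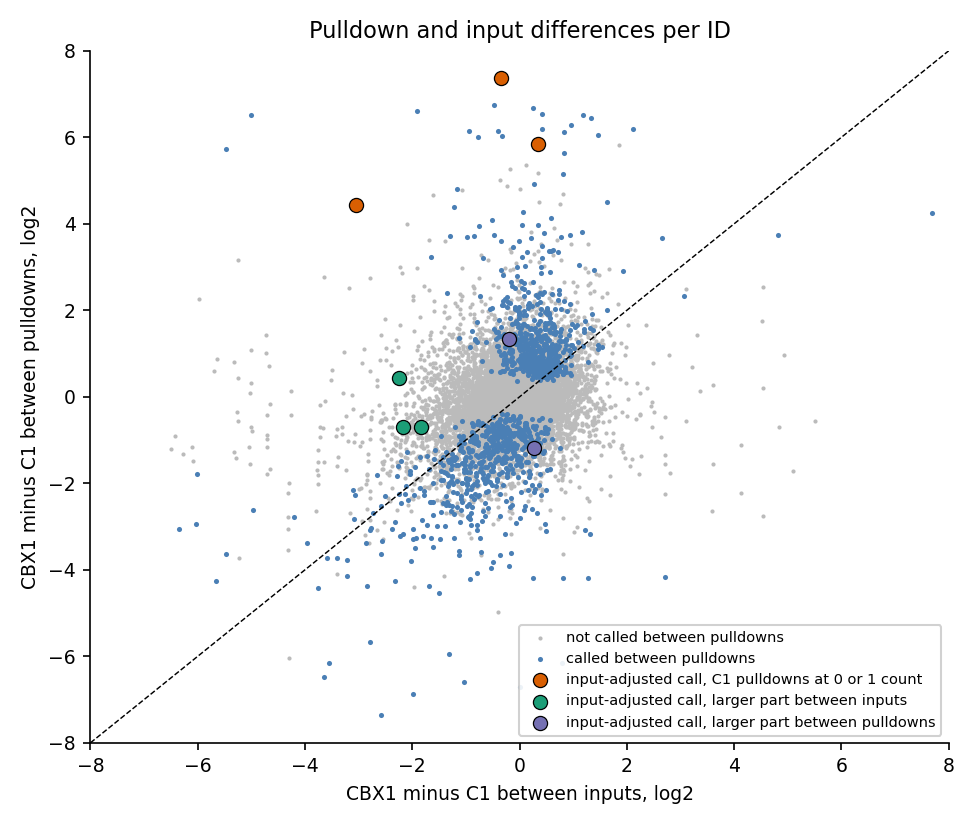
CBX1 minus C1 between pulldowns (vertical, log2) against the same between inputs (horizontal, log2), per tested ID; blue points are the 1144 calls between pulldowns, large points the 8 input-adjusted calls, and on the dashed line both differences are equal. The 3 green calls lie left of the line because their input difference is near -2, while their pulldown difference is between -0.70 and 0.44.

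The pulldown calls were also set beside the other fusions. In the 571 higher IDs, the median log2 level relative to the GFP pulldown was 0.27 for CBX1 and -0.85 for C1. In the 573 lower IDs it was -0.48 for CBX1 and 0.77 for C1. Over all tested IDs the medians were 0.02 for CBX1 and -0.04 for C1. Relative to the eIF4E pulldown, the higher IDs stood at 0.45 for CBX1 and -0.72 for C1, and the lower IDs at -0.79 for CBX1 and 0.45 for C1. Relative to the eIF4A pulldown, the higher IDs stood at 0.42 for CBX1 and -0.73 for C1, and the lower IDs at -0.66 for CBX1 and 0.63 for C1. The IDs were chosen by the CBX1 minus C1 pulldown difference, which favours opposite signs of the 2 sides and larger values in the group with the larger spread, so these medians are a description only. Relative to GFP and without C1 pulldown replicate 1, the medians were 0.31 for CBX1 and -0.95 for C1 in 505 higher IDs, and -0.45 for CBX1 and 0.81 for C1 in 612 lower IDs.

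Calls between pulldowns were more frequent among abundant IDs. With the tested IDs ranked by mean level and cut into 4 equal bins, the share was, from the lowest to the highest bin, 6.40%, 6.53%, 8.21% and 15.7%, while the median standard error of the difference was 0.77, 0.49, 0.35 and 0.23. In the highest bin, 294 were higher and 193 lower in the CBX1 pulldown, and in the lowest bin 79 were higher and 120 lower. Input-adjusted calls numbered 2, 1, 0 and 5 in the same order, and calls between inputs 3, 7, 11 and 84. Among the 571 higher calls, 60 had at most 3 counts over both C1 pulldowns, and among the 573 lower calls 29 had at most 3 counts over both CBX1 pulldowns. Such IDs made up 206 and 68 of all tested IDs on the C1 and the CBX1 side.

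The number of calls changed with the libraries in the fit, and the cause was not tested. With only the 10 pulldowns in the fit, 166 IDs differed between the pulldowns, all 166 among the 1144, and with only the 10 inputs 691 differed between the inputs, including all 105. With only the 8 CBX1 and C1 libraries, 150 IDs differed between pulldowns and 0 input-adjusted (783 at an unadjusted edgeR p under 0.05). DESeq2 called 14 input-adjusted, 8 higher and 6 lower, and 5 of the 8 edgeR calls were among them.

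Without C1 pulldown replicate 1, 53 IDs were called input-adjusted (30 higher, 23 lower), including all 8, and 1117 between pulldowns, of which 583 were among the 1144. Without C1 pulldown replicate 2, which leaves replicate 1 alone, the counts were 1089 and 3253. Leaving out CBX1 pulldown replicate 1 gave 0 input-adjusted calls and 365 between pulldowns, and leaving out CBX1 pulldown replicate 2 gave 17 and 502. The input-adjusted count was 3 without C1 input replicate 1 and 0 without C1 input replicate 2, CBX1 input replicate 1 or CBX1 input replicate 2. In these 4 fits with 0 calls (edgeR), 907 to 957 IDs had an unadjusted p under 0.05. Each of these tests had a lone library in 1 group, taken to vary as the other groups did.

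**Figure D5:**
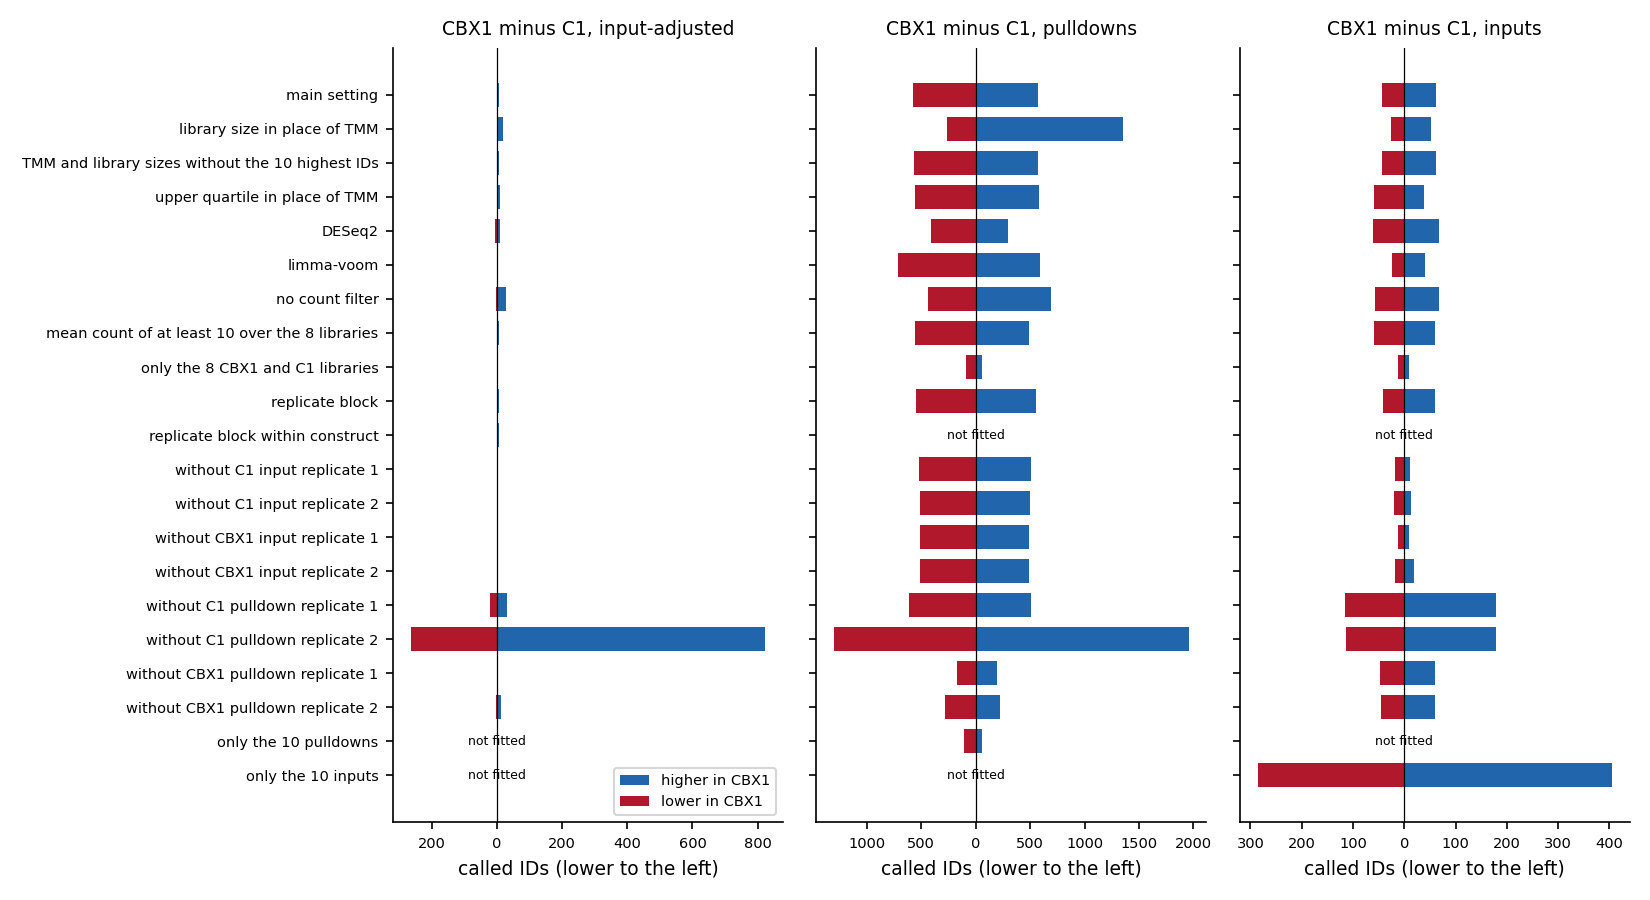
Number of called IDs (horizontal; higher in CBX1 to the right in blue, lower to the left in red) under each setting (vertical) for the input-adjusted, pulldown and input differences, each panel with its own scale. Among the settings drawn, which keep the input correction, the input-adjusted count is at or below 53 except without C1 pulldown replicate 2, where it is 1089.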

How the data were processed

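The 8 libraries belong to a table of 20 naive libraries, 2 inputs and 2 pulldowns for each of 5 constructs, and the remaining 17 libraries of the study were not used here. The authors deposited unnormalised read counts for each Ensembl ID; per the submitters' processing notes, cutadapt, HISAT2 and featureCounts were used with GRCh38. Tool versions, strandedness in counting and multi-mapping reads: not given in the sources used here, so IDs that overlap or resemble another gene are uncertain. No molecular identifiers are named, so amplified copies count as reads.

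Counts were tested with edgeR 4.0.16 in R 4.3.3 (filterByExpr, TMM, robust quasi-likelihood F test, group means over 20 libraries, Benjamini-Hochberg adjustment over 12427 IDs). Two-sided calls are at an adjusted p under 0.05, and standard errors are the log2 difference divided by the square root of F. CPM used TMM-scaled library sizes, and log2 CPM a prior count of 2. Alternatives used the same IDs unless they changed the filter or left out the 10 highest IDs (12417 tested). The input-adjusted and pulldown tests were checked on simulated data that had the same spread in every group. That check does not cover the wider spread of the C1 pulldowns. Groups and replicate numbers came from titles. Replicates were not duplicates. The chi-square per ID between replicates was 9.20 for the C1 pulldowns and 4.97 for the CBX1 pulldowns. For the inputs it was 1.51 (CBX1) and 1.32 (C1). The test shared 1 spread per ID over all groups. Standard errors and adjusted p-values thus do not measure the spread of the C1 pulldowns alone. Deviations of same-numbered libraries correlated at -0.07 to 0.03 over 2099 IDs, and the main test did not pair the numbers. The same-numbered ratios, their non-overlap and the naming rule did pair them. A low correlation cannot exclude pairing here, because the input replicates differed by little more than counting error.

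The comparison, its gene lists and its settings were chosen with earlier results of these data known. The naming rule asked for symbols, a mean of at least 3 log2 CPM, an adjusted p under 0.05 and no overlap of the same-numbered pulldown-over-input values (which 37.1% of all IDs met). Without symbols, at most 2 IDs a direction were kept, the largest differences first, and the missing second lower call was filled by the smallest unadjusted p. The 17 written gene lists, those by symbol or protein sequence and the cell type markers could not be applied, and no sequence is shown.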

Additional observations from a re-analysis of the deposited data

Results flagged for a closer look

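The pulldown over input differed between the constructs, by the test of the difference itself, in 8 IDs. The named ones were ENSG00000269821.1 (log2 difference of CBX1 minus C1 2.70), ENSG00000116127.16 (1.54) and ENSG00000272333.4 (-1.44). The remaining 5 are described by their counts and ranges above.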

How the results depend on the processing

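Input-adjusted, 8 IDs were called in the reported fit, and upper-quartile scaling (10), scaling without the 10 highest IDs (8) and a mean count of at least 10 (7) stayed within 1.5 times of that. The count was 19 with library size in place of TMM, all higher, with a median of 0.25 over all IDs, against 0.02 with TMM. It was 14 with DESeq2, 29 without a count filter, 1144 without input correction, and 0 with limma-voom (1228 at an unadjusted p under 0.05) or with only the 8 libraries. Between pulldowns, DESeq2 gave 711, only the 8 libraries 150 and, chosen after seeing the data, only the 10 pulldowns 166. Between inputs, limma-voom gave 64, only the 8 libraries 22 and, chosen after seeing the data, only the 10 inputs 691. With 1 library left out in turn, the counts ranged from 0 to 1089 input-adjusted, 365 to 3253 between pulldowns and 22 to 294 between inputs. A replicate block gave 7, 1105 and 101, and a replicate block within construct gave 6 input-adjusted. ENSG00000116127.16 lost its call under both (1.54, edgeR adjusted p = 0.0569 for the first). Whether same-numbered libraries were pairs is not known. The cause of the changed counts was not tested. The 4 named IDs kept their direction in all 18 other settings of the input-adjusted test. Their choice by non-overlap and by size or unadjusted p in these same libraries all but fixed that direction. ENSG00000269821.1 (2.29 to 3.0) was called in 12, ENSG00000116127.16 (1.35 to 1.78) in 9, ENSG00000272333.4 (-1.54 to -1.23) in 10 and ENSG00000184216.10 (-1.37 to -0.89) in 5; the highest adjusted p was 0.693. A call rests on few counts where inputs are shallow, as in the 12 and 17 counts of ENSG00000269821.1. The gene lists had no values to recompute.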
